A study of Rattus norvegicus with 10 samples.

Results

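Translation initiation and elongation factors were followed in RNA of plasma exosomes, membrane vesicles shed by cells into the circulation. The members were all transcript clusters, the array's unit of measurement, whose only annotated gene symbol began with Eif1 to Eif6 or with Eef1 or Eef2, and 1 cluster stood for each gene, the one with the highest mean over all arrays. This gave 103 genes from 109 matching clusters, of 68842 clusters on the array and 23456 with a single symbol. They comprised 64 factor genes and 39 copies, of which 36 had pseudogene symbols (ending in ps and a number) and 3 had like symbols. The samples were 5 healthy control male Wistar rats and 5 male Wistar rats given remote ischemic conditioning (RIC), in which the blood supply of a distant body part is interrupted and let return, here in 4 cycles of 5 min ischemia and 5 min reperfusion. Every sample carries the same treatment text, which was read here as describing the RIC rats. Neither the age of the rats nor the site and timing of the procedure relative to sampling is stated in the labels. The question was whether the factors of protein synthesis differed between the groups, complex by complex.

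Translation begins when eIF2, carrying the initiator tRNA, joins the small ribosomal subunit with eIF1, eIF1A, eIF5 and the large scaffold eIF3. The eIF4 factors recruit this assembly to the mRNA cap, and eIF5B joins the large subunit, after which eEF1A delivers aminoacyl-tRNAs and eEF2 moves the ribosome along the mRNA. Ischemia is known to slow initiation through kinases that phosphorylate eIF2 alpha and elongation through the eEF2 kinase; these controls act on the proteins, whereas an array reads RNA. Plasma vesicles carry RNA from blood cells, platelets and vessel walls.

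Values are log2 signal as deposited, with means ± SD over 5 rats, and differences are RIC minus control. Array medians lay between 4.05 and 4.23, with a mean of 4.13 in controls and 4.19 in RIC. Clusters of olfactory and vomeronasal receptor genes, used as background, had sample medians of 3.89 to 3.99 in controls and 4.01 to 4.09 in RIC. Background was thus itself higher in RIC, and small positive differences of members near it are to be read beside that. Its 95th percentile was 4.38. Of 10 measured platelet markers, all were above that level and 3 were at the table's highest value, 19.93, on every array. The sample median of platelet markers ran from 18.08 to 19.06 in controls and from 17.94 to 19.07 in RIC, and that of red cell markers (8 measured, all above background) from 8.12 to 8.63 and from 8.20 to 11.00. All 6 exosome markers were above background, with sample medians of 7.14 to 8.00 in controls and 6.96 to 7.40 in RIC. All 6 endothelial markers were above background too, with sample medians of 6.10 to 7.50 in controls and 5.82 to 6.79 in RIC, and controls 2 and 3 were the highest for both of these lists. Of 7 neutrophil markers 4 were above background, with sample medians of 4.35 to 4.62 and 4.61 to 4.84. The part of these markers in the differences below was not tested. In such bulk samples, fewer vesicles of a type and less RNA per vesicle cannot be told apart.

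No translation factor gene passed limma's test at a Benjamini-Hochberg adjusted p of 0.05, and neither did any other cluster. At an unadjusted p under 0.05, limma picked 5 of the 99 members whose values varied, 4 lower and 1 higher in RIC, which is 5.05% against 11.1% of all clusters. After centring on receptor clusters the order turned, with 20 members (20.2%) against 12.2% of all clusters, and after array-median centring the shares were 10.1% and 9.76%. By direction, the shares over all clusters on the deposited values were 3.17% lower and 7.97% higher. In none of the 99 members did the groups stand apart without overlap, as they did in 1.74% of all clusters and in 2.39% of those with a mean of 6 to 18. For 89 of the 99, the 95% interval of the difference lay within 1 log2 unit of 0 in both directions.

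More members were lower than higher in RIC, and this followed the level of the RNA. Of the 99, 68 were lower and 31 higher, with a median difference of -0.05, whereas 38.5% of all varying clusters were lower, with a median of 0.03. Among clusters with a mean of 6 to 18, however, 78.1% were lower and the median was -0.22. Of the 30 factor genes in that range 26 were lower, with a median of -0.15. Of the 33 dimmer ones 20 (60.6%) were lower, with a median of -0.02 at a median level of 5.09. Of all clusters with a mean up to 6, 34.4% were lower, with a median of 0.04 at a median level of 4.09. Members with a mean of 10 to 12, for example, were lower in 7 of 8 cases with a median of -0.18, and all clusters of that level had a median of -0.30. The split depended on scaling: 82 of 99 members were lower after centring on array medians and 92 after centring on receptor clusters, but 37 after repeated quantile normalization and 52 after removal of each array's level-dependent trend. The direction of the members as a whole was thus not settled.

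**Figure D1:**
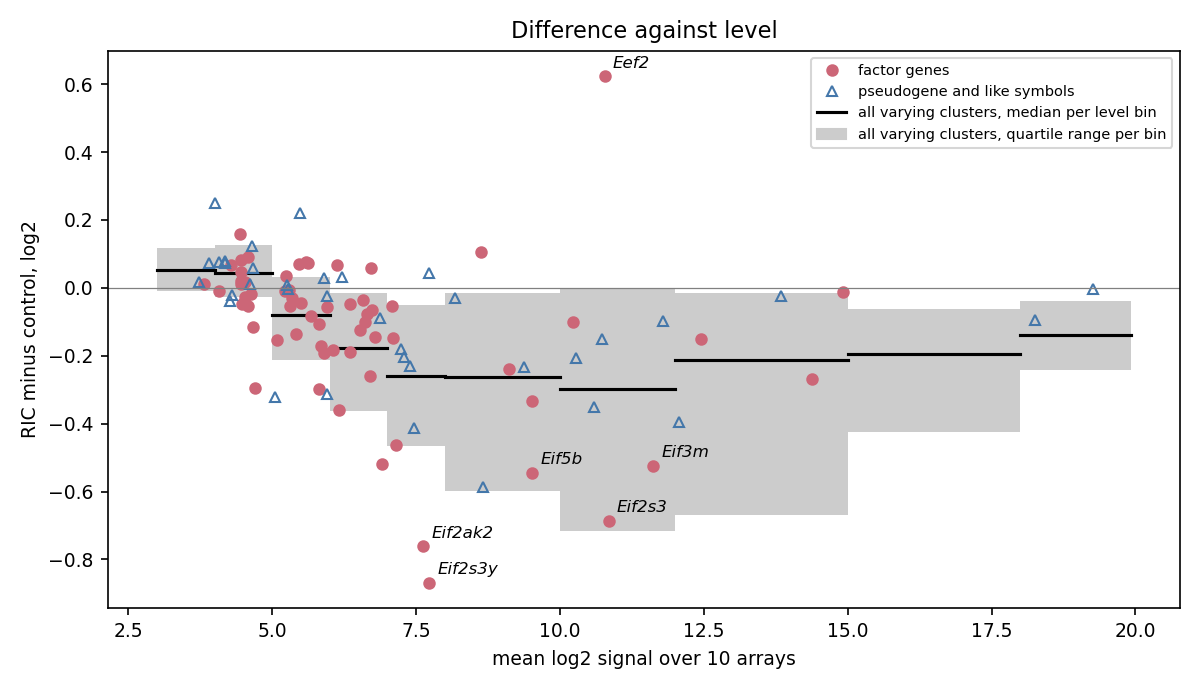
The difference RIC minus control in log2 units is plotted against the mean log2 signal over 10 arrays, with factor genes as filled circles, pseudogene and like symbols as open triangles, and, for all varying clusters, the median of each level bin as a black line and the range between its quartiles as a grey band. The black line lies above 0 at the dimmest levels and below 0 from a level of 5 upward, and most factor genes lie below 0 there; Eef2 lies at 0.62.

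The controls differed among themselves more than the RIC rats did. In 49 of 63 varying factor genes (77.8%) the SD of controls was the larger one, against 50.5% of all varying clusters and 64.1% of those with a mean of 6 to 18. The median SD of these factor genes was 0.21 in controls and 0.14 in RIC. In each of the 30 factor genes with a mean of 6 to 18 the highest control was control 2 (15 genes) or control 3 (15 genes), which held for 62.2% of all clusters in that range. The sample median of those 30 genes was 7.04, 7.38, 7.70, 7.0 and 6.89 in controls 1 to 5 and 7.08, 6.91, 6.77, 7.08 and 6.85 in RIC rats 1 to 5. Controls 1, 4 and 5 thus lay within the range of RIC rats and controls 2 and 3 above it. Of all 99 members, 59 were lower in RIC when either of these controls was left out, and 67 to 72 when any other single rat was. The median difference of the factor genes, -0.06 over all rats, was -0.03 without control 2 and -0.04 without control 3.

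**Figure D2:**
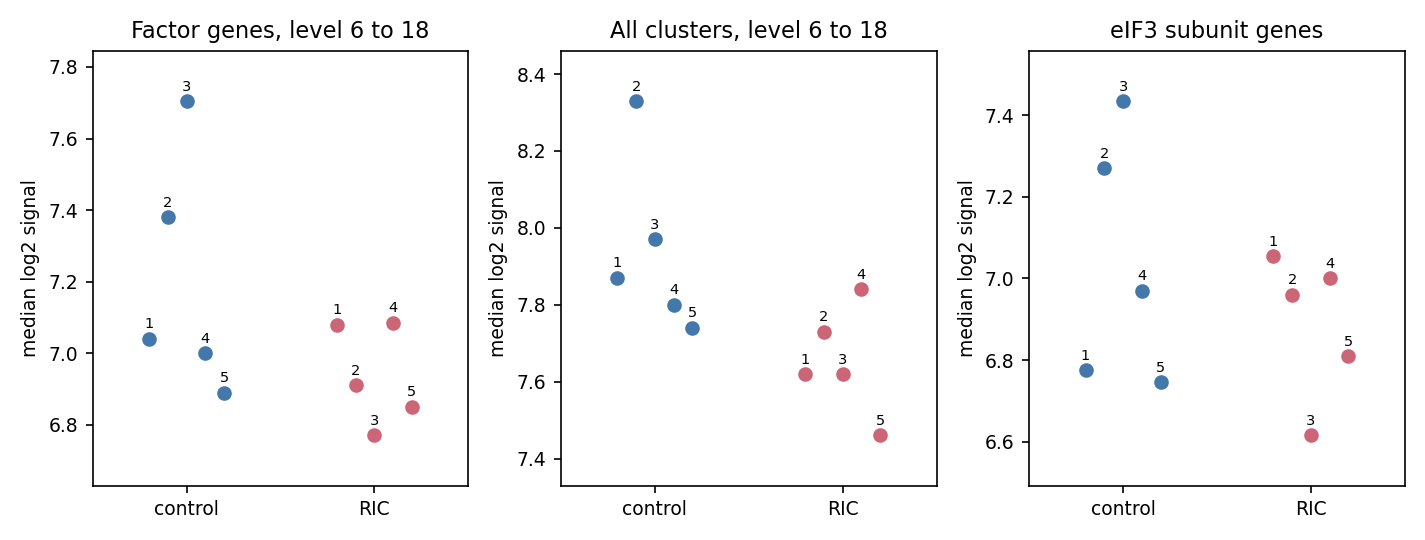
The median log2 signal of each rat, numbered by replicate, is shown for 30 factor genes with a mean of 6 to 18, for all 5809 varying clusters in that range and for 12 eIF3 genes. Controls 2 and 3 are the 2 highest rats in all panels, with factor gene medians of 7.38 and 7.70.

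Both genes of the gamma subunit of eIF2, the part that holds GTP and the initiator tRNA, were among the 3 lowest differences of the members, beside the kinase gene Eif2ak2. These ranks take no account of signal level. Rats have an X-linked gene, Eif2s3, and a Y-linked one, Eif2s3y, and both were measured in these males. Whether the probes of either gene also bind RNA of the other was not tested, so the 2 values may not be independent. A window of 30 bases at their annotated starts is shown because these 2 genes share a stretch there, with Eif2a and Eif3f added as factor genes with the same stretch and Eif4e as one that has it without a pyrimidine run. Sequences are from RefSeq (GRCr8), 5′ to 3′ on the gene's strand, and capitals mark AAGATGGC, the core of the motif bound by the factor YY1 that holds a start codon in its letters, and runs of at least 8 C or T, the kind of letters that begin 5′ terminal oligopyrimidine (TOP) mRNAs, whose translation follows mTOR. The first base is the annotated start for Eif2s3 and Eif3f and lies 8 bases before it for Eif2a and 10 before it for Eif2s3y and Eif4e. The windows are chrX:62933670-62933699 (minus strand) for Eif2s3, chrY:944643-944672 (plus) for Eif2s3y, chr2:144911352-144911381 (plus) for Eif2a, chr1:172369062-172369091 (plus) for Eif3f and chr2:229740743-229740772 (plus) for Eif4e.
Eif2s3: TTTTCCTTTTCTCTCTgagcAAGATGGCtg
Eif2s3y: tctttcgtgagcAAGATGGCgggcggagaa
Eif2a: atgggTTTCTCTTTCCgggacAAGATGGCg
Eif3f: ctagCCTCTCTCTTTCTCggcAAGATGGCa
Eif4e: ttgtgcgatcagatcgatctAAGATGGCga
Searched on both strands from 250 bases before to 50 after the start, AAGATGGC was found in 6 of 57 factor genes with a RefSeq promoter (10.5%), against 3.67% of 21851 protein-coding promoters. The 6 genes, the 5 above and Eef1e1, had a median difference of -0.31 with 4 lower, and the other 50 varying ones a median of -0.05 with 37 lower. The motif was chosen after values had been seen, as a stretch shared by Eif2s3 and Eif2s3y. Both are among the 6 genes, so they are counted in the 10.5% by construction, and their low values are built into that median. The 2 shares are thus not a test of enrichment. The others differed by -0.36 (Eif2a), -0.26 (Eif4e), 0.07 (Eef1e1) and 0.11 (Eif3f). Signal levels were not matched between the sets, and the comparison is a description.

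Eif2s3y was 7.80, 8.90, 8.05, 8.46 and 7.56 in controls 1 to 5 and 7.31, 6.80, 7.09, 7.99 and 7.24 in RIC rats 1 to 5. Of the RIC rats only RIC 4 exceeded any control, so the groups overlapped through that rat. The means were 8.15 ± 0.53 and 7.29 ± 0.44 (n = 5 each), a difference of -0.87 (SE 0.29, 95% interval -1.52 to -0.21; limma, unadjusted p = 0.0148, Benjamini-Hochberg adjusted p = 0.388). It ranged from -0.95 to -0.59 over the scalings and from -1.04 to -0.68 when single rats were left out. The difference on deposited values lay below the lower quartile, -0.47, of all clusters with a mean of 7 to 8. A second cluster of this gene, near background at 4.43, differed by 0.08.

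Eif2s3, singled out as its X-linked partner after values were seen, was 10.55, 11.64, 11.94, 11.32 and 10.49 in controls and 10.95, 10.42, 9.98, 10.92 and 10.24 in RIC. Controls 2, 3 and 4 lay above all RIC rats, and controls 1 and 5 among them. The difference was -0.69 (SE 0.32, 95% interval -1.42 to 0.05; limma, Benjamini-Hochberg adjusted p = 0.468). All clusters with a mean of 10 to 12 had a median of -0.30 and a lower quartile of -0.72, so Eif2s3 was within the quartiles of its level. The alpha subunit gene Eif2s1, whose protein is the target of the stress kinases, differed by -0.04, and Eif2s2, the beta subunit, by -0.06. After repeated quantile normalization both were higher in RIC, by 0.16 each, so the lower values of eIF2 rested on the gamma subunit genes. The eIF2 median was -0.38 with 4 of 4 lower, between -0.46 and -0.10 over the scalings (the latter after repeated quantile normalization), and -0.23 when the clusters of each gene were averaged, owing to the second Eif2s3y cluster.

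**Figure D3:**
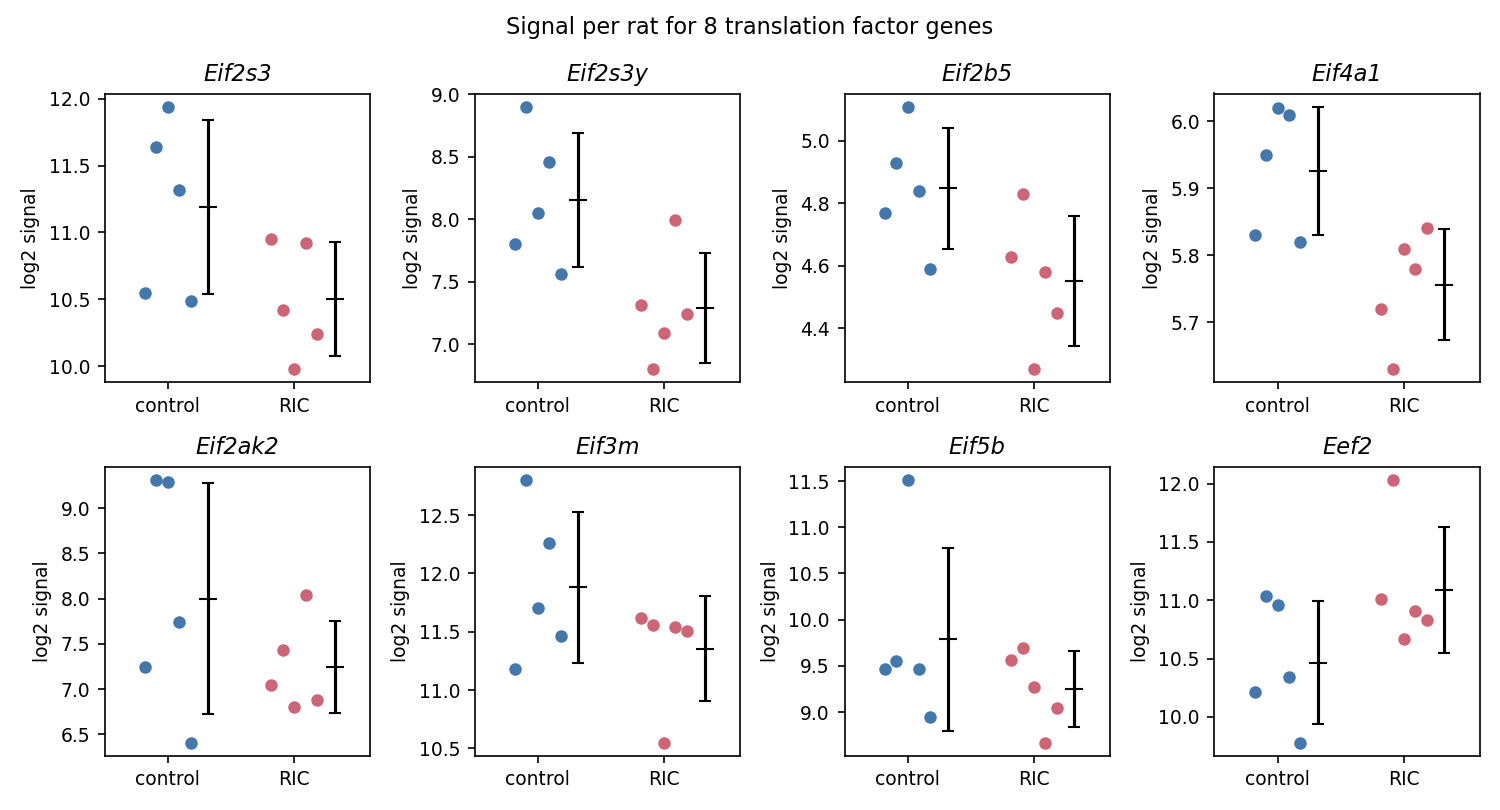
The log2 signal of each rat is plotted for 8 translation factor genes, with points in replicate order within control and RIC and the mean ± SD (n = 5) beside them. Groups overlap in every panel; Eif2s3y overlaps through RIC 4 (7.99), and Eef2 is the gene whose RIC mean (11.09) is above its control mean (10.47).

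eIF2B recycles eIF2 by exchanging its GDP for GTP, and its catalytic epsilon subunit is encoded by Eif2b5. Eif2b5 was dim, at 4.77, 4.93, 5.11, 4.84 and 4.59 in controls and 4.63, 4.83, 4.27, 4.58 and 4.45 in RIC. RIC 2 and RIC 1 were within the control range and the other 3 RIC rats below it. The difference was -0.30 (SE 0.12, 95% interval -0.57 to -0.02; limma, unadjusted p = 0.0357, Benjamini-Hochberg adjusted p = 0.426). The other 4 subunit genes differed by -0.05 to 0.02, with Eif2b2 the highest, and the eIF2B median was -0.02, or 0.02 when controls 1 and 2 were both left out.

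The 4 kinases that phosphorylate eIF2 alpha did not move one way. Eif2ak2, which encodes the double-stranded RNA sensor PKR, was 7.25, 9.31, 9.29, 7.74 and 6.41 in controls and 7.05, 7.43, 6.80, 8.04 and 6.88 in RIC. Controls 2 and 3 stood above all other rats while control 5 was the lowest of all, and the difference of -0.76 had an interval of -2.06 to 0.54 (limma, Benjamini-Hochberg adjusted p = 0.622). Eif2ak1, the heme-regulated kinase of red cell precursors, differed by -0.05. Eif2ak3, the endoplasmic reticulum stress kinase PERK, and Eif2ak4, the amino acid sensor GCN2, were near background at 4.46 and 4.45 and differed by 0.08 and 0.05, and after centring on receptor clusters by -0.003 and -0.04. Eif2a, which encodes a separate initiation factor, was named after its values were seen; it was 6.01, 6.89, 6.44, 6.23 and 6.14 in controls and 6.37, 6.10, 5.91, 5.73 and 5.80 in RIC. RIC 1 and RIC 2 were among the controls and the other RIC rats below them, with a difference of -0.36 (limma, Benjamini-Hochberg adjusted p = 0.484).

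Start codon selection involves eIF1, eIF1A and eIF5, and 4 of the 5 genes of this group were lower, with a median of -0.05 that became 0.04 after repeated quantile normalization. Eif1ax, the X-linked eIF1A gene, was 7.25, 7.49, 7.95, 7.09 and 7.10 in controls and 7.48, 7.18, 6.36, 6.91 and 6.63 in RIC. RIC 3, 4 and 5 were below every control and RIC 1 and 2 among them, a difference of -0.46 (limma, Benjamini-Hochberg adjusted p = 0.491). The lower quartile of all clusters with a mean of 7 to 8 was -0.47. Eif1ad, a nuclear protein with an eIF1A-like domain, was close to background and differed by 0.16. Eif5, the GTPase activator of eIF2, differed by -0.15. Eif1 and the eIF3 subunit gene Eif3g were not analysed here.

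The scaffold eIF3 was represented by 12 genes: 9 were lower and 3 higher, with a median of -0.10. Without control 3 the median was 0.02, and it was 0.11 after repeated quantile normalization and 0.03 after trend removal, so its sign was not settled. Eif3m had the lowest difference, -0.52 (95% interval -1.27 to 0.22; limma, Benjamini-Hochberg adjusted p = 0.556), with 11.18, 12.80, 11.70, 12.26 and 11.46 in controls and 11.62, 11.56, 10.55, 11.54 and 11.51 in RIC. The values of RIC 1, 2, 4 and 5 lay between 11.51 and 11.62, inside the control range, and RIC 3 alone lay below it. The difference was -0.29 without control 2, -0.32 without RIC 3 and -0.17 after repeated quantile normalization. The lower quartile of all clusters with a mean of 10 to 12 was -0.72. Eif3a, the largest subunit, was 9.33, 9.59, 11.16, 9.58 and 8.77 in controls and 9.76, 9.53, 8.92, 9.31 and 9.24 in RIC. Its difference of -0.33 rested on control 3 and was 0.03 without that rat. Eif3k, a peripheral subunit, was 5.84, 6.31, 5.97, 5.83 and 6.05 in controls and 5.86, 5.83, 5.80, 5.86 and 5.69 in RIC, a difference of -0.19 (limma, Benjamini-Hochberg adjusted p = 0.463). Eif3f, a subunit with an MPN domain, was highest among eIF3 genes at 0.11. The remaining 8 lay between -0.27 (Eif3h) and 0.07 (Eif3d). The array IDs place the Eif3h cluster on chromosome 6 and the Eif3e cluster on 13, while RefSeq places both genes on 7. Which RNA these clusters read is thus uncertain, and Eif3h held 14.4 on 7 of 10 arrays. The eIF3 median was -0.08 when only clusters on the gene's chromosome were kept.

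Cap recruitment depends on eIF4E, which binds the cap, the scaffold eIF4G and the RNA helicase eIF4A. All 3 eIF4A genes were lower in RIC, with a median of -0.17 (-0.26 to -0.04 over the scalings). Eif4a1, the main eIF4A gene, was 5.83, 5.95, 6.02, 6.01 and 5.82 in controls and 5.72, 5.63, 5.81, 5.78 and 5.84 in RIC. Controls 2, 3 and 4 were above every RIC rat, and RIC 5 was above controls 1 and 5. The difference was small but the spread was smaller, -0.17 (SE 0.06, 95% interval -0.30 to -0.04; limma, unadjusted p = 0.0145, Benjamini-Hochberg adjusted p = 0.386, the lowest among the members). Eif4a3, which belongs to the exon junction complex rather than to cap recruitment, was 7.04, 8.01, 7.90, 6.18 and 6.75 in controls and 6.98, 6.65, 6.22, 6.75 and 6.68 in RIC. Controls 2 and 3 were again the highest and control 4 the lowest of all 10, with a difference of -0.52 (limma, Benjamini-Hochberg adjusted p = 0.574). Eif4a2 differed by -0.11.

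All 4 genes of the eIF4E family were lower, with a median of -0.10 (-0.19 to -0.07 over the scalings). Eif4e itself was 6.66, 6.87, 7.26, 6.49 and 6.85 in controls and 6.62, 6.48, 6.31, 6.68 and 6.74 in RIC. The groups overlapped, and the difference was -0.26 (limma, Benjamini-Hochberg adjusted p = 0.508), but -0.04 after repeated quantile normalization and -0.15 without control 3. The helicase partners Eif4b and Eif4h differed by -0.24 and -0.14. The scaffold genes Eif4g1 and Eif4g3 differed by -0.03 and -0.01, and the eIF4G median of -0.03 became 0.06 after repeated quantile normalization. Eif4g2, which encodes the cap-independent scaffold DAP5, was bright at 12.46 and differed by -0.15, but 7 of its 10 arrays held the single value 12.43. The eIF4E-binding proteins, repressors that mTOR inactivates, differed in sign: Eif4ebp1 by 0.06, Eif4ebp2 by 0.08 and Eif4ebp3 by -0.30 (limma, Benjamini-Hochberg adjusted p = 0.471 for the last). With Eif4enif1, their median was -0.05, or 0.04 after repeated quantile normalization.

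**Figure D4:**
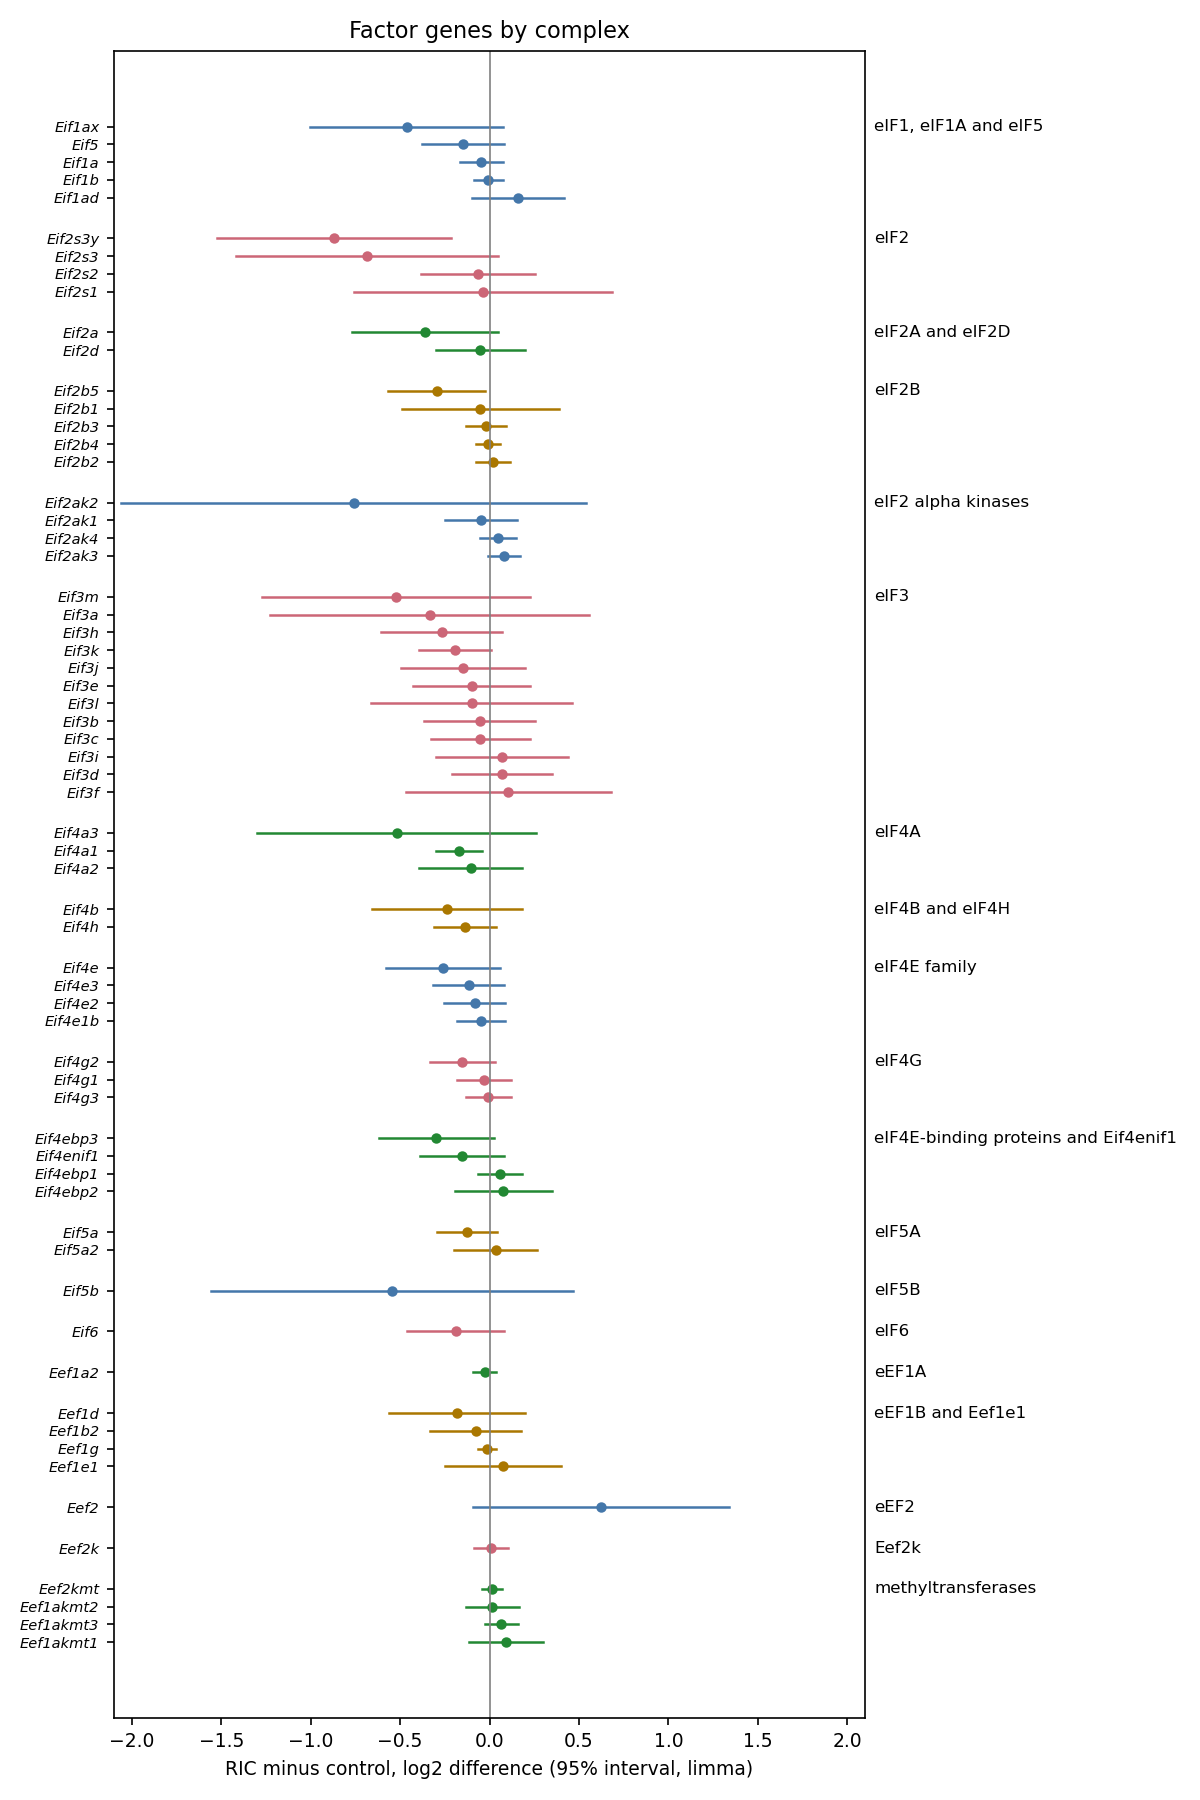
Each of 63 varying factor genes is drawn as its difference RIC minus control in log2 units (point) with limma's 95% interval (line), grouped by complex. All 4 eIF2 genes lie left of 0, led by Eif2s3y (-0.87) and Eif2s3 (-0.69), and Eef2 (0.62) lies farthest to the right.

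The late initiation factors were also within their spread. Eif5b, named after its values were seen, was 9.47, 9.55, 11.51, 9.47 and 8.95 in controls and 9.56, 9.69, 9.27, 8.67 and 9.04 in RIC. Control 3 stood well above every other rat, and the difference was -0.54 (limma, Benjamini-Hochberg adjusted p = 0.653), or -0.11 without control 3. The lower quartile of all clusters with a mean of 8 to 10 was -0.60. Eif5a, whose hypusine-carrying protein aids elongation and termination, differed by -0.12, and by 0.07 after repeated quantile normalization. Eif6, which keeps the large subunit from joining too early, differed by -0.19, and by -0.001 under that normalization.

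Elongation was led by Eef2, the gene of the translocase. Eef2 was 10.21, 11.04, 10.96, 10.34 and 9.78 in controls and 11.01, 12.03, 10.67, 10.91 and 10.83 in RIC. RIC 2 was above all controls, the other 4 RIC rats lay below control 2, and controls 1, 4 and 5 were below every RIC rat. The means were 10.47 ± 0.53 and 11.09 ± 0.54 (n = 5 each), a difference of 0.62 (SE 0.32, 95% interval -0.09 to 1.34; limma, unadjusted p = 0.0802, Benjamini-Hochberg adjusted p = 0.487). This was the highest difference among the 103 members. It stayed above 0 under each of 4 scalings (0.54 to 0.92), and was 0.39 without RIC 2. Its regulator Eef2k, the kinase that inhibits eEF2, was near background at 4.46 and differed by 0.01.

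Eef1a1, the gene of the main eEF1A, was at the ceiling of 19.93 on every array, so no difference between groups could be seen. Eef1a2, the form of muscle and neurons, was near background at 4.53 and differed by -0.03. Of the exchange factor eEF1B, Eef1g held 14.92 on 9 of 10 arrays, Eef1d differed by -0.18 and Eef1b2 by -0.08, and Eef1e1, a scaffold protein of the multisynthetase complex, by 0.07. The median of these 4 genes was -0.05, or 0.15 after repeated quantile normalization. Such repeated single values were common at high level: all 11 members above 12 held 1 identical value on at least 5 arrays, against 3 of 41 members between 6 and 12. The 4 methyltransferases that modify eEF1A and eEF2, all dim, had a median of 0.04, which turned to -0.02 after centring on array medians.

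The elongation factor mRNAs are known TOP mRNAs, and the starts of 3 of them are shown to set this against their values. Capitals mark runs of at least 8 C or T. The windows, from RefSeq (GRCr8), are chr8:88225050-88225079 (minus strand) for Eef1a1, chr9:72074081-72074110 (plus) for Eef1b2 and chr7:9189219-9189248 (minus) for Eef2, in which no such run was found, and each begins 10 bases before the annotated start.
Eef1a1: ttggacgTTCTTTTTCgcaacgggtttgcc
Eef1b2: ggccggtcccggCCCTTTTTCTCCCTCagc
Eef2: ccgcagccgccgccatcgtcggcgcgcttc
Such a run, searched from 10 bases before to 30 after the start on the gene's strand, was present in 12 of 57 factor genes (21.1%) and in 13.7% of protein-coding promoters. The 11 varying genes with a run had a median difference of -0.05, and so did the 45 without. Of 9 listed TOP members 8 varied, 6 lower and 2 higher in RIC, with a median of -0.09. Of these, 0 had an unadjusted p under 0.05, against 11.1% of all clusters. The comparison by run does not separate TOP from other mRNAs. Of the listed TOP members, Eef2 and Eef1g had no run, and Eef1d, Eif3e, Eif3h and Eif4b had no promoter to search. A run could also lie anywhere in the searched window rather than at the start itself.

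Of the 39 copies RefSeq lists 34 as pseudogenes, 4 as protein-coding (Eif5-ps6 and the 3 like symbols) and 1, Eif3i-ps2, as a long non-coding RNA. Their probes may also bind RNA of the parent gene, so the origin of a copy's signal is uncertain. Of the 36 that varied, 22 were lower and 14 higher, with a median of -0.02. For 36 of the 39 the parent gene was measured, and the copy had the higher signal in 6 cases, 3 of them copies of Eif5. Eif5-ps8 was 8.65, 9.17, 9.58, 8.53 and 8.85 in controls and 8.73, 7.63, 8.33, 8.49 and 8.67 in RIC. RIC 2, 3 and 4 were below every control, and the difference was -0.59 (SE 0.26, 95% interval -1.17 to -0.01; limma, unadjusted p = 0.0483, Benjamini-Hochberg adjusted p = 0.447), beside -0.15 for Eif5. Eef2-ps4 differed by 0.22 beside 0.62 for Eef2. Eif5a-ps2 was the 1 member higher in RIC at an unadjusted p under 0.05 (0.25; limma, unadjusted p = 0.024, Benjamini-Hochberg adjusted p = 0.409), at a level of 4.01, below the background's 95th percentile. Eif1-ps8 was at the ceiling on every array. Among 29 pairs in which both varied, copy and parent had the same sign in 20.

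**Figure D5:**
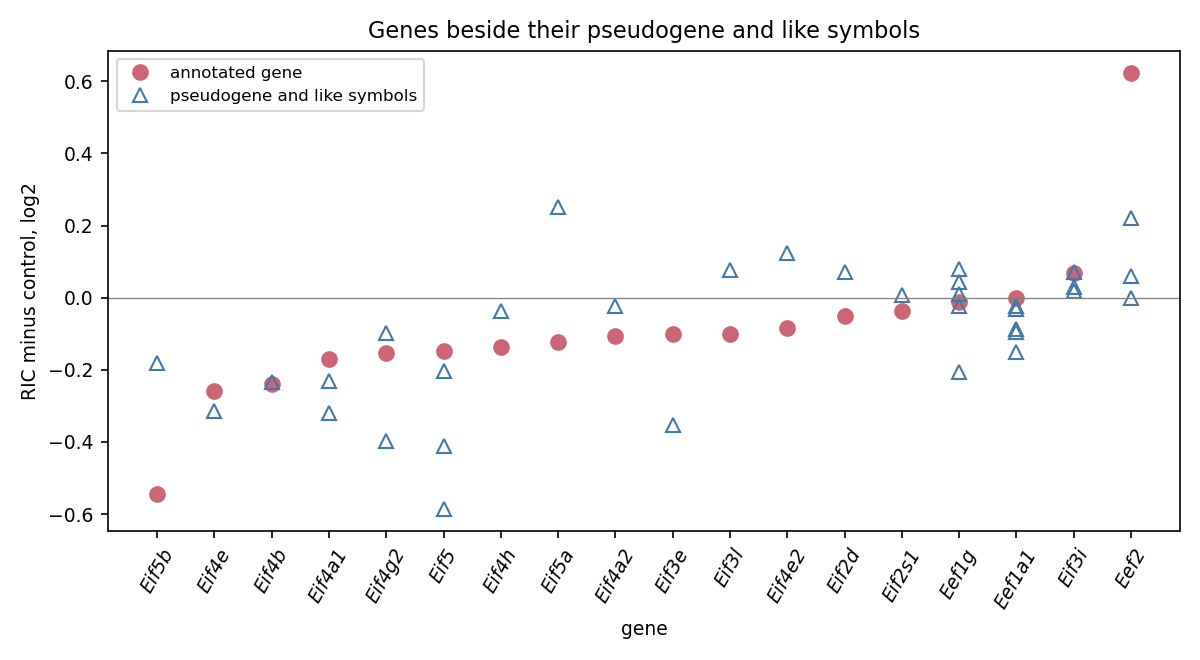
For each gene with a varying copy, the difference RIC minus control in log2 units is shown for the annotated gene (filled circle) and for its pseudogene and like symbols (open triangles). Copies of Eif5 lie at -0.20 to -0.59 below Eif5 itself (-0.15), and those of Eef2 at or below 0.22 while Eef2 is at 0.62.

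Genes that act beside the factors were set next to them from a list of 35, of which 33 were measured. Of these, 19 were lower and 14 higher in RIC, with a median of -0.05, and 6 had an unadjusted p under 0.05 (3 in each direction), 18.2% against 11.1% of all clusters; none passed adjustment (lowest limma Benjamini-Hochberg adjusted p = 0.369). The 4 genes named next were picked for their differences after values were seen. Pabpc4, a cytoplasmic poly(A)-binding protein gene, was 6.47, 7.25, 6.30, 7.02 and 5.95 in controls and 7.99, 7.72, 7.32, 8.22 and 7.04 in RIC. All RIC rats but RIC 5 were above every control, a difference of 1.06 (SE 0.30, 95% interval 0.38 to 1.74; limma, unadjusted p = 0.00627). Rheb, the GTPase that activates mTOR, was 9.23, 9.97, 9.68, 9.69 and 9.07 in controls and 9.18, 9.09, 8.49, 8.42 and 8.09 in RIC. Only RIC 1 and RIC 2 exceeded the lowest control, and the difference was -0.87 (SE 0.25, 95% interval -1.44 to -0.31; limma, Benjamini-Hochberg adjusted p = 0.370). Abce1, the ribosome recycling ATPase, differed by -0.84 (95% interval -1.67 to -0.006, limma, Benjamini-Hochberg adjusted p = 0.447). Control 2 was its highest rat, at 8.82, and the difference ran from -1.14 to -0.55 when single rats were left out. Mknk2, a kinase of eIF4E, differed by 0.32. The 4 integrated stress response genes, Atf4 among them, had a median of -0.01 and the 6 mitochondrial factors one of 0.03.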

How the data were processed

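Exosomal RNA of 10 rats was hybridised as biotin-labelled cRNA to an Affymetrix whole-transcriptome array, per the labels. The authors deposited log2 values; the submitters' processing notes name Affymetrix Expression Console, without its version, and the summarisation and normalization are likewise not given in the sources. The animals are separate samples, so p-values measure the spread between them. RIC and control were compared with limma 3.58.1 (lmFit, eBayes) under R 4.3.3, on all 68842 clusters, two-sided, with Benjamini-Hochberg adjustment, no covariate and no filter. The step was tested on simulated data with a change larger than any member difference here. That run therefore does not show whether differences of the size reported here could be detected. Array number, 5 per group, limits the precision. Members and lists were chosen with earlier results of these data known. Genes were named by rule: the 5 lowest unadjusted p in each direction among members above background, core regulatory genes, the extremes of each complex of 3 or more genes, and members at the ceiling; every other gene named was chosen with its values known. All 103 members matched RefSeq, and the array IDs named the RefSeq chromosome for 99; Eif3e, Eif3h, Eef1a1-ps13 and Eif4g2l1 differed. Alternatives covered scaling, variance model, filters, clusters per gene, replicate block and left-out rats. Leaving out controls 1 and 2 together was added after seeing the data. Leaving out controls 2 and 3 together was also tried and moved the factor genes' median difference to about 0. Its values are not given, because these rats had been picked by their high signal in the genes compared, so that leaving them out raises the differences by construction.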

Additional observations from a re-analysis of the deposited data

Results flagged for a closer look

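In 74 sets of 5 rats, 1 rat stood apart from the other 4 by Dixon's criterion in 6, where chance gives about 1 in 20. Eef2 was 12.03 in RIC 2 and 10.67 to 11.01 in the other RIC rats. Eif3f was 9.28 in RIC 2 and 8.38 to 8.64 in the others. Eif3m was 10.55 in RIC 3 against 11.51 to 11.62, and Eif4g2 was 12.19 in RIC 5 against 12.43 in each of the others. With identical values in the others, any departure would have been flagged for Eif4g2. Control 2 stood apart for Eif2s1, at 7.21 against 6.39 to 6.52, and for Eif4g1, at 5.62 against 5.26 to 5.33.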

How the results depend on the processing

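limma called 0 clusters at the adjusted threshold under every alternative run. The 5 members with an unadjusted p under 0.05 (5.05%, against 11.1% of all clusters) became 10 (10.1% against 9.76%) after array-median centring. Receptor centring gave 20 (20.2% against 12.2%), and repeated quantile normalization 9 (9.09% against 9.85%). The count was 3 with the trended and robust variance model (3.03% against 10.6%). It was also 3 with clusters above background alone (3.41% of 88, against 10.6%) and without controls 1 and 2 (3.03% against 6.9%). Without single rats it ran from 2 (2.02%) to 11 (11.1%), and the share of all clusters from 8.47% to 11.8%. Members lower in RIC fell to 37 of 99 after repeated quantile normalization. Beyond the spread between rats, complex medians moved for the methyltransferases (-0.023 with array-median and -0.044 with receptor centring), for eIF1, eIF1A and eIF5 (-0.13 with receptor centring, 0.0438 with quantile normalization) and for the kinases (-0.086 with receptor centring). Within that spread, repeated quantile normalization also turned the medians of eIF3 (0.11), eEF1B with Eef1e1 (0.15), eIF4G (0.06), the eIF4E-binding proteins with Eif4enif1 (0.04) and the kinases (0.02), and brought eIF2 from -0.38 to -0.10 and eIF4A from -0.17 to -0.04. Signs reversed as follows, and the cause was not tested. Array-median centring gave -0.004 for Eif4ebp1, -0.018 for Eif2ak4, -0.054 for Eef2k, -0.044 for Eif2b2 and -0.052 for Eef2kmt. Receptor centring gave -0.003 for Eif2ak3, -0.025 for Eif4ebp1, -0.039 for Eif2ak4, -0.009 for Eif4ebp2, -0.075 for Eef2k, -0.011 for Eef1e1, -0.065 for Eif2b2, -0.073 for Eef2kmt and -0.015 for Eif3d. Quantile normalization gave 0.16 for Eif2s1, 0.14 for Eif2ak1, 0.0494 for Eif4g1, 0.18 for Eif4g2, 0.0736 for Eif5a, -0.0339 for Eef2k, -0.0268 for Eif2b2, 0.025 for Eif4a2, 0.0643 for Eif4g3, -0.0414 for Eef2kmt, 0.16 for Eif2s2, 0.11 for Eif5, 0.0937 for Eif3h, 0.0501 for Eif4b, 0.13 for Eef1b2 and 0.30 for Eef1g. Trend removal gave 0.093 for Eif2s1, 0.0713 for Eif2ak1, 0.0288 for Eif4g1, 0.0023 for Eif5a, -0.0189 for Eef2k, -0.01 for Eif2b2, 0.0486 for Eif4g3, -0.0388 for Eef2kmt, 0.0705 for Eif2s2, 0.0532 for Eef1b2 and 0.0507 for Eef1g. Array weights gave 0.0724 for Eif2s1 and 0.0052 for Eif4g3. Without controls 1 and 2 the values were 0.13 for Eif2s1, 0.03 for Eif4g1, -0.0153 for Eef2k, 0.0013 for Eif4g3 and -0.006 for Eef2kmt. Leaving out single rats gave ranges that crossed 0 for Eif4ebp2 (-0.0205 to 0.16), Eef2k (-0.012 to 0.0305), Eif4e1b (-0.0735 to 0.0005), Eif2s1 (-0.29 to 0.16), Eif4g1 (-0.055 to 0.035), Eif4g3 (-0.042 to 0.0355), Eif2ak1 (-0.11 to 0.0055), Eif3a (-0.56 to 0.0345), Eif2b2 (-0.004 to 0.036), Eif3f (-0.042 to 0.29), Eif3d (-0.042 to 0.12) and Eef1e1 (-0.042 to 0.15). With the replicate number as a block 4 members (4.04%, against 11% of all clusters) had an unadjusted p under 0.05 and no call changed. Deviations of same-numbered rats correlated between -0.05 and 0.18, so the numbers were not taken to pair animals. Signal at the ceiling and near background limits what members at either end can show.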
